A study of Mus musculus with 24 samples.

Results

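The comparison set tumour cells in a rigid microenvironment with TGF-beta against cells in a compliant microenvironment in which the type I receptor for TGF-beta was inhibited, and asked at which microRNAs (miRNAs) rigidity and TGF-beta add up and at which they cancel. Its members are the 12 of 24 arrays titled rigid TGFb (6 arrays) or compliant basal (6 arrays), where basal is the labels' name for the inhibitor. Each side held 2 arrays, called set 1 and set 2, from each of 3 mouse mammary carcinoma lines: 67NR (nonmetastatic per the labels), 4TO7 (invasive) and 4T1 (highly metastatic). All cells were kept for 6 days in organotypic culture. The other 12 arrays, compliant with TGF-beta and rigid with the inhibitor, were used only to divide the combined difference into its parts. No group lacked both TGF-beta and the inhibitor, so what the factor did and what the inhibitor did to the contrary cannot be told apart. The labels give neither the material nor the stiffness of the microenvironments, and each line stands for itself only. They also do not say whether set 1 and set 2 were separate cultures, so the p-values reflect array-to-array spread only, which may be technical.

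TGF-beta is a secreted factor whose receptors phosphorylate Smad proteins, and in mammary tumours it drives epithelial-mesenchymal transition and matrix deposition. Stiff surroundings act on cells through integrins and the actin cytoskeleton, and also release TGF-beta from its latent form, so both inputs meet in the same cells. A miRNA is a short RNA that guides repression of messenger RNAs whose untranslated regions match its seed, bases 2 to 8.

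The miRNAs on which the results turn are shown with the seed in capitals, 5′ to 3′, as mature sequences from RefSeq (mouse build GRCm38.p6). The first 4 fell in rigid TGFb cells, with rigidity and TGF-beta acting in one direction.
miR-221: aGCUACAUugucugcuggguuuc
miR-222: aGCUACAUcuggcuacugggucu
miR-210: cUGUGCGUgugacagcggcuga
miR-99a: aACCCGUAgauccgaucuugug
In the next 6 both inputs were called and opposed each other.
miR-146a: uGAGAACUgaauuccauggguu
miR-146b: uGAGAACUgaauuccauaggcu
miR-149: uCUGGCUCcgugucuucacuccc
miR-181a: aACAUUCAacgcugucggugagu
miR-181b: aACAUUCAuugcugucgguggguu
miR-193: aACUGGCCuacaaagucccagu
In miR-22, miR-21 and miR-155 the TGF-beta component alone was called, and miR-205 was above background in 1 group only.
miR-22: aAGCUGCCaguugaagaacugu
miR-21: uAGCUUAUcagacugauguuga
miR-155: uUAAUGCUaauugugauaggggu
miR-205: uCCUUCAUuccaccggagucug
MiR-221 and miR-222 share a seed and lie close together on the minus strand, at chrX:19146307-19146329 and chrX:19146901-19146923. MiR-181a and miR-181b also share a seed, and each has one copy at chr1:137966468-137966490 and chr1:137966650-137966673 and another within the span of Nr6a1, at chr2:38852741-38852763 and chr2:38853845-38853868. MiR-146a (chr11:43374435-43374456) and miR-146b (chr19:46342790-46342811) share a seed and come from different chromosomes. MiR-149 lies within the span of Gpc1 (chr1:92850381-92850403) and miR-21 within that of Vmp1 (chr11:86584120-86584141), without regard to strand. Array names predate the current arm names, and each was paired with the main arm.

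The arrays carry 558 mouse miRNA probes. A value is the relative intensity of a probe, the sample signal over a synthetic reference, quantile normalised between arrays and given on the log2 scale. A probe counted as detected on an array at a detection p under 0.05, and 365 probes were tested, those detected on both arrays of some group. Rigid TGFb arrays had 320 to 356 detected probes and compliant basal arrays 319 to 357. Differences come from limma over all 24 arrays, given with their standard error (SE), and a miRNA is called at an adjusted p under 0.05. The epithelial miRNAs miR-200b, miR-200c and miR-429 were detected on both sides in 4T1 only, and miR-141 in all 3 lines. Their relative miR-200a was detected on both sides in 4TO7 and 4T1, and on 1 compliant basal array of 67NR. Of the mesenchymal miRNAs, miR-145, miR-199a-5p and miR-214 were detected on both sides in all 3 lines. MiR-143 was detected in 67NR only, and the miR-199a-3p probe on no array compared. The white-cell miRNA miR-223 and the endothelial miR-126-3p were detected on no array compared, whereas the red-cell miRNA miR-451 was detected on all 12, at means of 10.01 to 10.22 on rigid TGFb and 9.87 to 10.22 on compliant basal arrays per line. Of the 7 blood miRNAs listed, the other 6 were detected on no array compared. The probe named for heart-muscle miR-208b was, like miR-451, detected on all 12, but 4 of the 6 muscle miRNA probes were detected on none. The part of these foreign signals in any result was not tested.

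Across the lines, 65 miRNAs were higher (17.8% called) and 60 lower (16.4% called) in rigid TGFb than in compliant basal cells, together 125 of 365 (34.2% called). The median over all 365 was 0.03. Only miR-221, miR-222 and miR-210 differed by more than 2-fold, and all 3 were lower. Of the 125, 107 had one direction in all 3 lines and 23 were called in each line on its own. The 2 arrays of each side did not overlap within each line for 63 of the 125, and for 65 of all 365 tested (17.8%). In 7 of the 365 (1.92%), the 6 rigid TGFb arrays did not overlap the 6 compliant basal arrays at all: miR-221, miR-222, miR-193, miR-193b and miR-484 were lower, and miR-181b and miR-17* higher. Scaling shifted the balance of higher and lower calls: they were 39 and 71 with arrays scaled to the median of all miRNA probes, 80 and 55 with the median taken over the probes that every array detected, and 98 and 51 in the authors' deposited table. No called miRNA changed direction under these 3 scalings, though 7 of the 125 are not in the authors' deposited table.

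**Figure D1:**
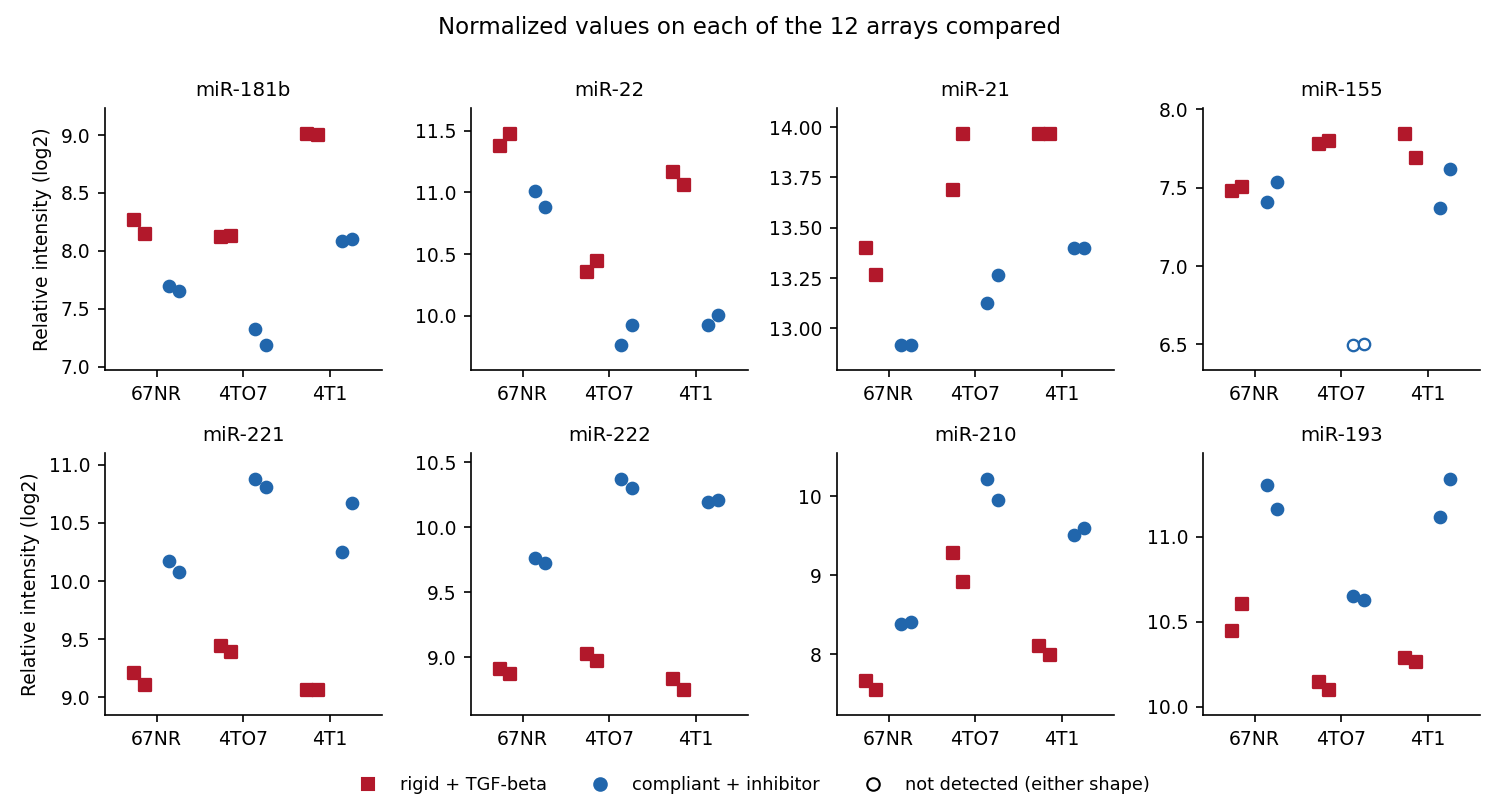
Normalised relative intensity (log2) of 8 miRNAs on each of the 12 arrays, with rigid TGFb arrays (red squares) left of compliant basal arrays (blue circles) in each line. The red squares of miR-221 and miR-222 lie below every blue circle, those of miR-181b lie above every blue circle, and miR-155 in 4TO7 has open symbols (not detected) on the compliant basal side only.

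MiR-221, which represses the cell cycle inhibitor Cdkn1b, measured 9.21 and 9.10 in rigid TGFb against 10.17 and 10.08 in compliant basal 67NR cells, 9.44 and 9.38 against 10.88 and 10.81 in 4TO7, and 9.06 and 9.06 against 10.25 and 10.67 in 4T1. All rigid TGFb arrays were low and all compliant basal arrays high, with no overlap between the sides. The difference was -1.27 ± 0.07 (limma adjusted p = 1.6e-09), or 0.416 of the compliant basal level. MiR-222, its neighbour and seed partner, measured 8.75 to 9.02 on the 6 rigid TGFb arrays (median 8.89) and 9.72 to 10.37 on the 6 compliant basal arrays (median 10.20). It differed by -1.20 ± 0.04 (adjusted p = 1.56e-12). MiR-210, the main hypoxia-induced miRNA, measured 7.67 and 7.55 in rigid TGFb against 8.38 and 8.41 in compliant basal 67NR cells, 9.28 and 8.91 against 10.22 and 9.96 in 4TO7, and 8.11 and 8.0 against 9.51 and 9.60 in 4T1. Within each line the sides were apart, but 4TO7 had more of it throughout, so rigid TGFb 4TO7 arrays lay above compliant basal 67NR arrays. The difference was -1.09 ± 0.07 (adjusted p = 7.39e-09).

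MiR-193, whose relative miR-193b is known in human breast cancer for repressing urokinase, measured 10.45 and 10.61 in rigid TGFb against 11.30 and 11.16 in compliant basal 67NR cells, 10.15 and 10.10 against 10.65 and 10.63 in 4TO7, and 10.28 and 10.26 against 11.11 and 11.34 in 4T1. Every rigid TGFb array was below every compliant basal array, by -0.73 ± 0.05 on average (adjusted p = 1.67e-08). MiR-365 and miR-193b, which lie next to each other in the genome, fell by 0.55 ± 0.05 and 0.53 ± 0.06. Further falls were measured for miR-26a, a repressor of the methyltransferase Ezh2 (-0.53 ± 0.05), miR-125b-5p (-0.48 ± 0.05), miR-30b (-0.47 ± 0.07), the Mtor repressors miR-100 (-0.46 ± 0.04) and miR-99a (-0.43 ± 0.03), and miR-31*, a passenger strand (-0.45 ± 0.03). MiR-30b was detected on 1 of the 4 arrays compared in 67NR, so its fall rests on 4TO7 and 4T1.

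MiR-181b had the largest rise. It measured 8.26 and 8.14 in rigid TGFb against 7.70 and 7.65 in compliant basal 67NR cells, 8.12 and 8.13 against 7.33 and 7.19 in 4TO7, and 9.01 and 9.0 against 8.08 and 8.11 in 4T1. The sides did not overlap, and the difference was 0.77 ± 0.03 (adjusted p = 4.06e-11), or 1.70-fold. MiR-181a followed with 0.69 ± 0.03 and miR-181d, of the same seed, with 0.33 ± 0.03. MiR-22, a widely expressed miRNA, measured 11.38 and 11.48 in rigid TGFb against 11.02 and 10.88 in compliant basal 67NR cells, 10.35 and 10.45 against 9.77 and 9.93 in 4TO7, and 11.16 and 11.06 against 9.93 and 10.01 in 4T1. The sides were apart within each line but not between lines, since 67NR had more of it with the inhibitor than 4TO7 had with TGF-beta, and the difference was 0.72 ± 0.05 (adjusted p = 5.82e-09).

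MiR-21, abundant in many tumours and a repressor of Pdcd4, was among the brightest probes. It measured 13.40 and 13.27 in rigid TGFb against 12.92 and 12.92 in compliant basal 67NR cells, 13.69 and 13.97 against 13.13 and 13.27 in 4TO7, and 13.97 and 13.97 against 13.40 and 13.40 in 4T1. It was higher in each line (0.54 ± 0.07, adjusted p = 1.69e-05), and its values recur because quantile normalisation gives the brightest ranks the same value on every array. MiR-155, an inflammation-induced miRNA that Smad signalling is known to raise in mouse mammary epithelial cells, differed by 0.53 ± 0.04 over the lines. That average came mainly from 4TO7, where it was detected on both rigid TGFb arrays (7.78 and 7.79) and on neither compliant basal array (6.50 and 6.50), a difference of at least 2.44-fold (adjusted p = 3.4e-09). Smaller rises were measured for the p53 target miR-34a (0.33 ± 0.04), the passenger strand miR-218-2* (0.34 ± 0.07), miR-671-5p (0.30 ± 0.06), miR-298 (0.27 ± 0.05) and miR-296-5p (0.26 ± 0.09, adjusted p = 0.0375). The call of miR-296-5p was lost with slide as a fixed block (adjusted p = 0.102) and in 8 of 24 fits that left out 1 array (adjusted p = 0.0557 to 0.123). MiR-135b was detected on the 2 rigid TGFb arrays of 4T1 and on no other array compared. In 4T1 the difference was at least 1.76-fold, whereas the values of 67NR and 4TO7 were below background and give no limit. Its difference over the lines (0.32) therefore rests on 4T1. That difference was called in the fit of all arrays (limma adjusted p = 0.000247) and not from the 12 arrays of the comparison alone (adjusted p = 0.062).

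The combined difference is the exact sum of a TGF-beta component (TGF-beta minus inhibitor, averaged over lines and microenvironments, 12 arrays against 12) and a rigidity component (rigid minus compliant, averaged over lines and treatments, 12 against 12). Both components use all 24 arrays, so they share arrays with each other and with the combined difference. The TGF-beta component was called for 144 of 365 miRNAs (39.5% called), 78 higher (21.4%) and 66 lower (18.1%). Its balance turned with scaling: 43 higher and 84 lower with the median of all miRNA probes, 100 and 52 with the median of probes that every array detected, and 110 and 50 in the authors' deposited table. The rigidity component was called for 80 (21.9% called), 39 higher (10.7%) and 41 lower (11.2%), none of them over 2-fold. With the median of probes that every array detected this became 20 higher and 45 lower. Among the 125 miRNAs called in the combined difference, the TGF-beta component was the larger of the pair in 99 and the rigidity component in 26, with median sizes of 0.14 and 0.066 log2 units. Among all 365 these numbers were 227 and 138, with medians of 0.066 and 0.048. The 125 were selected on the sum of the same components. With slide as a fixed block in the model, 39 miRNAs were called for rigidity in place of 80.

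**Figure D2:**
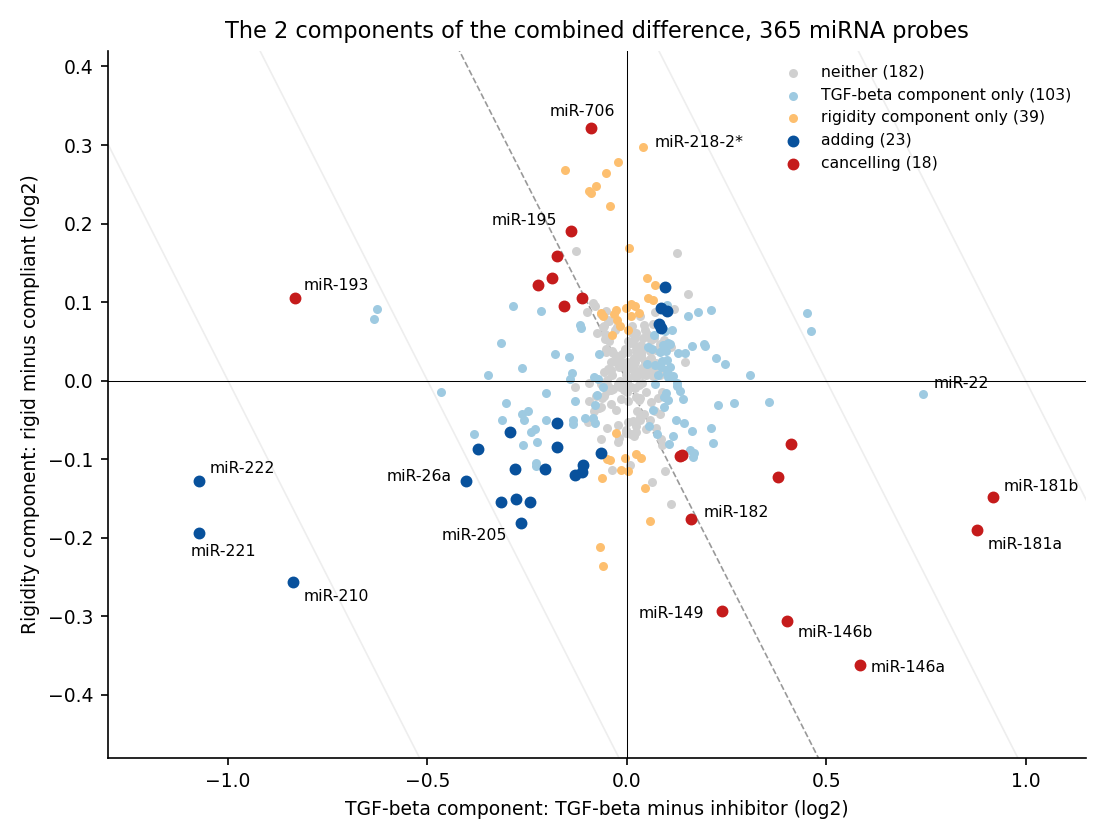
TGF-beta component (x axis, log2) against rigidity component (y axis, log2) of the 365 tested probes, coloured by which components were called. On the dashed line the components sum to 0, and the pale lines mark steps of 0.5 in the combined difference. Adding miRNAs (dark blue) lie mostly at the lower left, with miR-221, miR-222 and miR-210 farthest out, and the cancelling miR-149, miR-182 and miR-195 (red) lie near the dashed line.

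The components added up, both called and of one sign, in 23 miRNAs (6.3%), 5 of them higher and 18 lower (1 and 19 with arrays scaled to the median of all miRNA probes). All 23 were also called in the combined difference, which the rule nearly fixes, since that difference is the sum of the same components. Of the 23, 20 were detected on all 24 arrays, the exceptions being miR-205, miR-30b and miR-450a-5p. MiR-210 had the largest smaller component, with -0.84 ± 0.05 for TGF-beta and -0.26 ± 0.05 for rigidity. In 4TO7 its 4 groups formed a staircase: 9.28 and 8.91 in rigid TGFb, 9.71 and 9.65 in compliant TGFb, 9.58 and 9.51 in rigid basal, and 10.22 and 9.96 in compliant basal cells. Either input alone gave a lower level and the pair the lowest, with components of -0.43 and -0.56 in that line. In 67NR, by contrast, the rigidity component of miR-210 was 0.07 (adjusted p = 0.69).

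MiR-221 had components of -1.07 and -0.19 and miR-222 of -1.07 and -0.13, so that nearly all of their fall was on the TGF-beta side. MiR-99a divided more evenly, with -0.28 ± 0.02 for TGF-beta and -0.15 ± 0.02 for rigidity. In 4T1 it measured 7.52 and 7.51 in rigid TGFb, 7.74 and 7.68 in compliant TGFb, 7.87 and 7.76 in rigid basal, and 8.04 and 8.06 in compliant basal cells. The rigid TGFb arrays were the lowest and the compliant basal arrays the highest, and none of the 4 groups overlapped. MiR-26a (-0.40 and -0.13), miR-30b (-0.32 and -0.15) and miR-208b (-0.24 and -0.15) also leaned to TGF-beta, whereas miR-30e (-0.13 and -0.12) and miR-125b-3p (-0.11 and -0.12) had components of nearly equal size. The rigidity component of miR-30b no longer passed with slide as a fixed block (adjusted p = 0.0646), with array weights (adjusted p = 0.0563) or in 13 of 24 fits that left out 1 array. That of miR-30e no longer passed in 6 of these 24 fits (adjusted p = 0.0515 to 0.0533).

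MiR-205, a repressor of Zeb1 and Zeb2 that marks basal mammary epithelium, was detected in 1 of the 12 groups. In 4TO7 it measured 6.25 and 6.29 in rigid TGFb, 6.79 and 6.54 in compliant TGFb, 7.01 and 6.85 in rigid basal, and 7.76 and 7.67 in compliant basal cells. Only the compliant basal arrays were above background, so rigid TGFb 4TO7 cells had at least 2.73-fold less (adjusted p = 9.3e-10), and the order of the 3 groups below background cannot be read. Its components (-0.27 and -0.18) rest on levels below background, so they do not show that the inputs add up, and without it 22 miRNAs were adding. These 22 still include miR-450a-5p, which was detected on 6 of the 24 arrays and on none of the 6 rigid TGFb arrays. Its components thus also rest in part on levels below background. The 5 miRNAs on which both inputs acted upward were miR-139-3p, miR-708*, miR-485, miR-490 and miR-17*, all with small combined differences of 0.15 to 0.21. Of the 23 adding miRNAs, 17 had both components in one direction in all 3 lines. These include miR-450a-5p, which was not detected on the compared arrays of 67NR. With slide as a fixed block 9 miRNAs added up, all lower, of which miR-100, miR-125b-3p, miR-205, miR-210, miR-222, miR-30e, miR-324-5p and miR-99a were among the 23, and miR-221 no longer passed for rigidity (-0.18, adjusted p = 0.098). Nor did miR-26a (adjusted p = 0.0625) and miR-208b (adjusted p = 0.0583). Without miR-205 the 9 were 8.

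**Figure D3:**
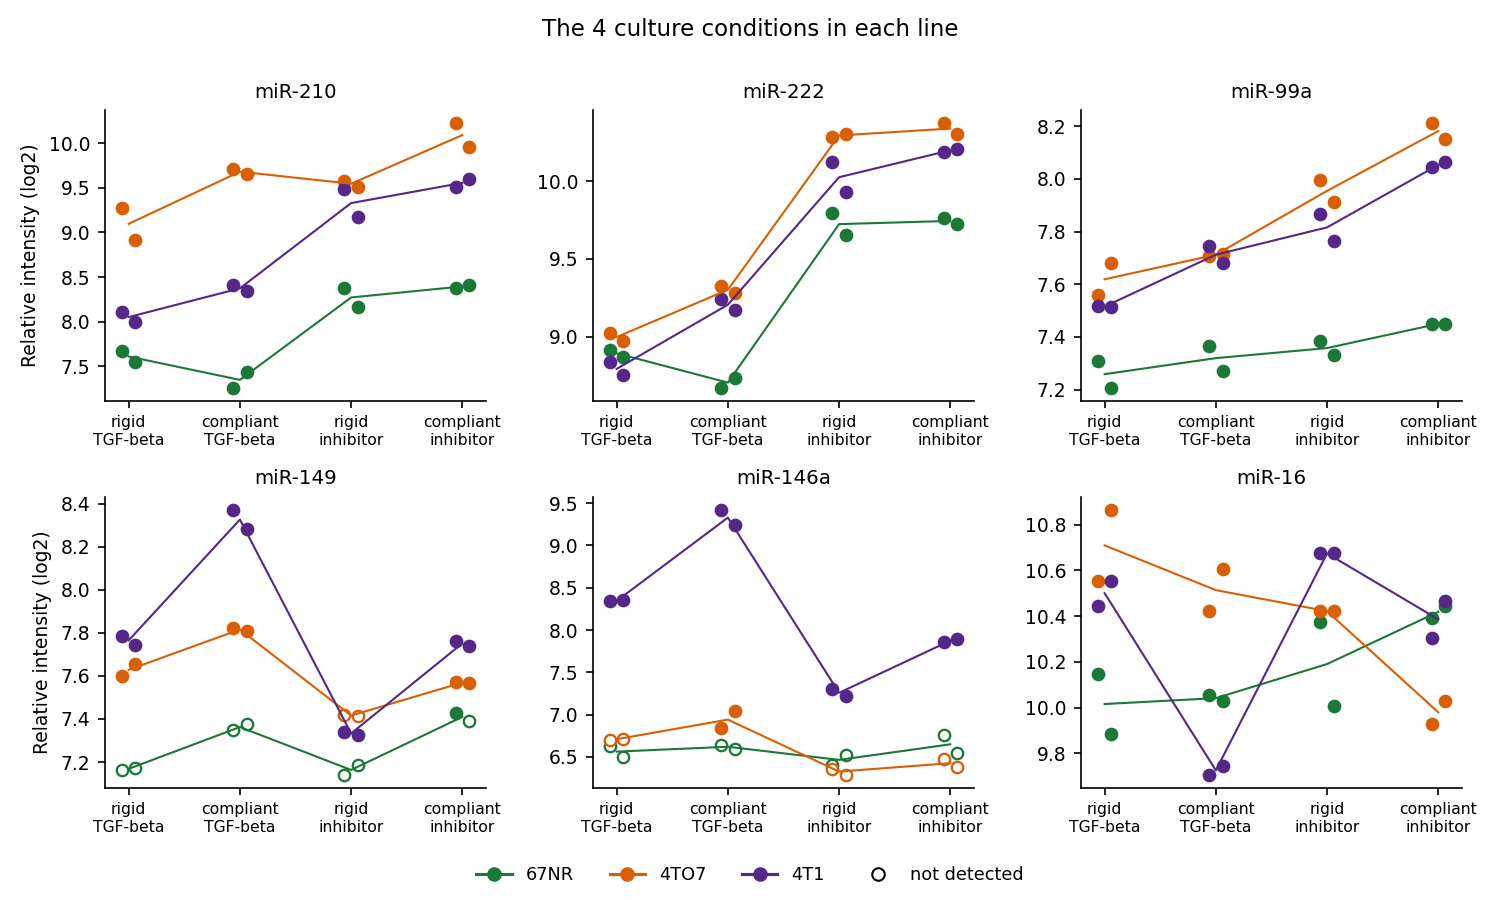
Normalised relative intensity (log2) of 6 miRNAs in rigid TGFb, compliant TGFb, rigid basal and compliant basal cells, left to right, for each line. Points are the 2 arrays of a group, open where not detected, and lines join group means. MiR-210 in 4TO7 and miR-99a in 4T1 are lowest in rigid TGFb and highest in compliant basal cells, whereas miR-149 and miR-146a in 4T1 peak in compliant TGFb cells.

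The components cancelled, both called and of opposite sign, in 18 miRNAs (4.93%). In 10 of these TGF-beta raised and rigidity lowered the level, and in 8 the reverse held. These numbers were 10 and 15 with arrays scaled to the median of all miRNA probes, 13 and 4 with the median of probes that every array detected, and 12 and 6 in the authors' deposited table. The combined difference was called in 8 of the 18 and not in the other 10. Of the 18, 12 were detected on all 24 arrays. The exceptions were miR-146a, miR-146b, miR-148a, miR-149, miR-182 and the probe shared by miR-466a-3p and other members of its family. Over the lines the sums nearest 0 were those of miR-28, miR-182 and miR-466g (-0.01, -0.01 and -0.02). MiR-149, the cancelling miRNA with the next largest smaller component after miR-146a and miR-146b, had a sum near 0 in 4T1. It measured 7.79 and 7.74 in rigid TGFb, 8.37 and 8.28 in compliant TGFb, 7.34 and 7.33 in rigid basal, and 7.76 and 7.74 in compliant basal 4T1 cells. Rigid TGFb and compliant basal arrays overlapped, while compliant TGFb arrays were the highest and rigid basal arrays the lowest. The 4T1 components were 0.50 for TGF-beta (adjusted p = 1.1e-10) and -0.49 for rigidity (adjusted p = 1.2e-09), and they left a difference of 0.01 ± 0.04. Over the lines miR-149 had components of 0.24 and -0.29, and a combined difference of -0.06 ± 0.02 that passed narrowly (adjusted p = 0.0446) and did not with slide as a fixed block (adjusted p = 0.084). MiR-149 was detected on 15 of the 24 arrays, which leave out most arrays of 67NR and the rigid basal arrays of 4TO7. Its values over the lines thus rest in part on levels below background.

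MiR-146a and miR-146b, which dampen NF-kappa-B signalling by repressing Traf6 and Irak1, had the largest smaller components of the 18. In 4T1 miR-146a measured 8.34 and 8.35 in rigid TGFb, 9.42 and 9.24 in compliant TGFb, 7.30 and 7.22 in rigid basal, and 7.86 and 7.89 in compliant basal cells. TGF-beta raised it on either microenvironment, and rigid cells had less of it under either treatment. The 4T1 components were 1.27 and -0.80, and the combined difference was 0.47 ± 0.08 (adjusted p = 0.00033). MiR-146b had the same order of groups in 4T1, with components of 1.0 and -0.66 and a combined difference of 0.34 ± 0.07. Neither was detected on any array of 67NR, and in 4TO7 miR-146a was detected in compliant TGFb cells only, so their components over the lines (0.58 and -0.36 for miR-146a, 0.40 and -0.31 for miR-146b) rest mainly on 4T1. The combined difference over the lines was 0.22 ± 0.05 for miR-146a and 0.10 ± 0.04 for miR-146b, which did not pass (adjusted p = 0.0709, 95% interval 0.01 to 0.18).

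The miR-181 members belong here too, although TGF-beta outweighed rigidity in them. MiR-181a had components of 0.88 ± 0.02 and -0.19 ± 0.02, miR-181b of 0.92 and -0.15, and miR-181d of 0.41 and -0.08. In 67NR miR-181a measured 7.94 and 7.91 in rigid TGFb, 8.31 and 8.33 in compliant TGFb, 7.26 and 7.14 in rigid basal, and 7.49 and 7.43 in compliant basal cells. Rigid cells had less under both treatments, and the rigidity component there was -0.32 (adjusted p = 4.3e-05). MiR-182, of the sensory miR-183 cluster, had components of 0.16 and -0.18 and a combined difference of -0.01 ± 0.04 (95% interval -0.11 to 0.08). Let-7i, whose family represses Lin28 and Hmga2, had 0.38 and -0.12 and differed by 0.26 ± 0.05.

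In the opposite sense, with TGF-beta lowering and rigidity raising the level, miR-193 had components of -0.83 and 0.10. MiR-195 had -0.14 and 0.19, miR-301b -0.19 and 0.13, miR-466g -0.17 and 0.16, and miR-28 -0.11 and 0.11, and none of these 4 passed in the combined difference. The TGF-beta component of miR-195 did not pass with the median of probes that every array detected (adjusted p = 0.0661) or in the authors' deposited table (adjusted p = 0.0622). The rigidity component of miR-466g did not pass in 13 of 24 fits that left out 1 array. For miR-28 the 95% interval was -0.07 to 0.06. MiR-16, which shares its seed with miR-195 and represses cell cycle genes, cancelled in 4T1. It measured 10.45 and 10.56 in rigid TGFb, 9.71 and 9.74 in compliant TGFb, 10.67 and 10.67 in rigid basal, and 10.30 and 10.47 in compliant basal 4T1 cells. Compliant TGFb arrays were low and the other 3 groups lay close together, with 4T1 components of -0.42 and 0.53. The probe named miR-706, whose identity as a miRNA is doubtful, had the largest upward rigidity component of the 18 (0.32, against -0.09 for TGF-beta). Of the 18, 13 had both components in one direction in all 3 lines. These include miR-146a and miR-146b, whose direction in 67NR cannot be read because neither was detected there. With slide as a fixed block 10 miRNAs cancelled, all among the 18: miR-146a, miR-146b, miR-148a, miR-149, miR-181a, miR-181b, miR-182, miR-28, miR-301b and miR-706. Of these, miR-148a was detected on 8 of the 24 arrays, all of them 4TO7, so its components over the lines rest in part on levels below background.

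Whether the TGF-beta step differed between rigid and compliant microenvironments was asked with an interaction contrast. No miRNA of 365 passed in limma (0% called), 22 had an unadjusted p under 0.05, and the smallest adjusted p was 0.591. The 6 smallest p belonged to miR-377, miR-500, miR-140*, miR-292-3p, miR-20b and miR-132, with interaction values of -0.19 to 0.18 log2 units and SE of 0.04 to 0.06. For miR-181a the value was -0.12 ± 0.04 (unadjusted p = 0.0164, adjusted p = 0.67) and for miR-210 it was 0.08 ± 0.10. Without the set 2 array of rigid TGFb 4T1 cells, miR-20b passed (-0.19, adjusted p = 0.0215).

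Line by line, 18 miRNAs were higher (4.93%) and 37 lower (10.1%) in rigid TGFb than in compliant basal 67NR cells (15.1% called). In 4TO7, 32 were higher (8.77%) and 40 lower (11%; 19.7% called), and in 4T1 43 were higher (11.8%) and 45 lower (12.3%; 24.1% called). The balance within a line moved with scaling. With the median of probes that every array detected, 67NR had 23 higher and 23 lower and 4TO7 had 19 and 49. With the median of all miRNA probes, 4TO7 had 23 and 51 and 4T1 had 30 and 52. The authors' deposited table gave 22 and 28 in 67NR and 46 and 34 in 4TO7. MiR-221, miR-222 and miR-210 were among the 5 largest falls in every line. In 67NR the 5 largest rises were miR-466h (0.62 ± 0.16), miR-466f-5p, miR-181b, miR-574-5p and the probe named miR-706 (0.49 ± 0.06). Apart from miR-181b, these had rigidity components of 0.45 to 0.64 in 67NR and TGF-beta components of -0.02 to 0.05. Of the 24 fits that left out 1 array, miR-574-5p lost its call in 7, miR-466h in 3 and miR-466f-5p in 2, and miR-574-5p also with slide as a fixed block (adjusted p = 0.0796). In 4TO7 miR-155, miR-181b, miR-181a, miR-16 (0.73 ± 0.12) and miR-21 led the rises. In 4T1 miR-22 (1.14 ± 0.08), miR-181b, miR-135b (at least 1.76-fold, with no detection in compliant basal cells), miR-132 (0.79 ± 0.07) and miR-181a led them. The probe shared by miR-27a and miR-27b fell in 67NR (-0.51 ± 0.13) and differed between lines (limma F test, adjusted p = 0.0358). Its fall in 67NR did not pass with the median of probes that every array detected (adjusted p = 0.0671). The count in 67NR was 32 with slide as a fixed block and 31 from the 12 arrays of the comparison alone. It was 35 and 19 without the set 1 and set 2 arrays of rigid TGFb 67NR cells, and 23 without the set 1 array of compliant basal 67NR cells. The 4TO7 count fell to 43 without the set 1 array of rigid TGFb cells and to 41 and 47 without the set 1 and set 2 arrays of compliant basal cells, and the 4T1 count to 51 without the set 2 array of compliant basal cells.

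**Figure D4:**
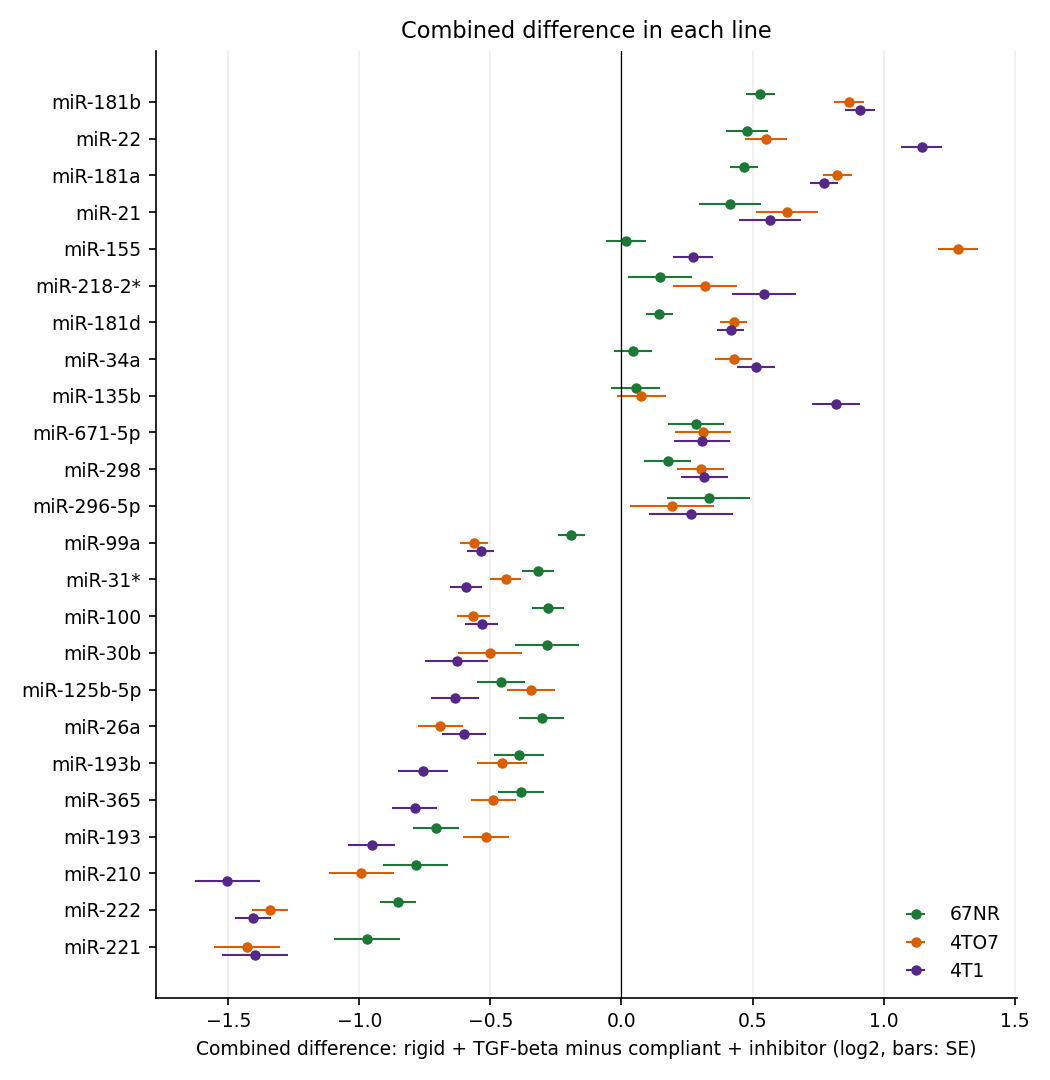
Combined difference (rigid TGFb minus compliant basal, log2, bars show SE) in 67NR (green), 4TO7 (orange) and 4T1 (purple) for the 12 largest rises and 12 largest falls with one direction in all lines. MiR-155 stands apart in 4TO7 and miR-135b and miR-22 in 4T1, while miR-671-5p differs by 0.28 to 0.31 in every line.

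The combined difference itself differed between lines for 40 of 365 miRNAs (limma F test, 11% called). MiR-205 and miR-155 had the smallest adjusted p, both through 4TO7. MiR-132, known as a target of the factor CREB, measured 9.26 and 9.21 in rigid TGFb against 8.34 and 8.56 in compliant basal 4T1 cells. In 67NR and 4TO7 the sides were within 0.04 of each other on average. MiR-140* and miR-140, strands of a cartilage miRNA precursor, rose in 4TO7 only among the lines (0.61 ± 0.07 and 0.45 ± 0.07), and the muscle miRNA miR-206 fell in 67NR (-0.37 ± 0.06) and was not detected on the compared arrays of 4TO7 or 4T1. The count of 40 was 25 without the set 2 array of rigid TGFb 67NR cells and 61 without the set 1 array of compliant basal 4T1 cells.

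Adding and cancelling were also counted within each line, from the components of that line. In these counts 67NR had 1 adding miRNA (miR-7a) and 8 cancelling ones, 4TO7 had 5 and 2, and 4T1 had 9 and 8. MiR-125b-5p is a case in point. In 67NR it measured 12.11 and 12.24 in rigid TGFb, 11.72 and 11.72 in compliant TGFb, 12.71 and 12.71 in rigid basal, and 12.78 and 12.48 in compliant basal cells, and in 4T1 it measured 13.40 and 13.27, 13.40 and 13.69, 13.69 and 13.69, and 13.97 and 13.97 in the same groups. Rigid cells with TGF-beta had more than compliant cells with TGF-beta in 67NR, and not in 4T1. Its rigidity component was 0.26 in 67NR (cancelling a TGF-beta component of -0.72) and -0.25 in 4T1 (adding to -0.39). Like miR-21 it was among the brightest probes, whose ranks quantile normalisation gives the same value on every array. Its differences are thus steps between ranks and depend on the other bright probes, miR-21 among them. The rigidity component of miR-125b-5p differed between lines (limma F test, added after the values were seen, adjusted p = 0.00823), as did that of 30 miRNAs in all (8.22% called). MiR-9, a repressor of E-cadherin, also cancelled in 67NR and added in 4T1, with TGF-beta components of 0.17 and -0.24 and rigidity components of -0.27 and -0.16 in these lines. The difference of its TGF-beta component between lines was not tested.

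Families followed these patterns to different degrees, and each count is to be read beside the shares among all 365. These were 34.2% called in the combined difference (17.8% higher and 16.4% lower, median 0.03), 6.3% adding and 4.93% cancelling. In the miR-30 family all 5 tested members fell (median -0.31), and 2 of them, miR-30b and miR-30e, were adding, miR-30b not with slide as a fixed block. In the miR-99, miR-100 and miR-125 families, 5 of 7 fell and 1, miR-99b, rose (median -0.32), with 4 adding and none cancelling. In the let-7 family 6 of 9 fell and let-7i rose (median -0.29). Both members of the miR-26 family fell (median -0.39). Of 4 miR-181 members 3 rose and 1 fell (median 0.51), and the 3 that rose were all cancelling. The authors’ published work on these arrays was about miR-181, so this count is no independent evidence. Of 4 inflammation-induced miRNAs, 3 rose (median 0.37), and miR-146b was the other one. Of 9 tested miRNAs reported as TGF-beta induced, 3 rose and none fell (median 0.08). Of 12 reported as responsive to stiffness or matrix, 1 rose and 4 fell (median -0.05), and the rigidity component was called in 1 of them, against 21.9% called among all 365. None of the 5 miR-200 family members passed over the lines (median 0.02).

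Arrays of both sides shared a slide in 2 cases. On slide 5, rigid TGFb set 1 and compliant basal set 2 of 67NR differed by -0.87 for miR-221, -0.81 for miR-222, -0.74 for miR-210, 0.61 for miR-181b and 0.49 for miR-22. On slide 1, rigid TGFb set 2 and compliant basal set 2 of 4T1 differed by -1.61, -1.46, -1.60, 0.89 and 1.06 for the same miRNAs. These within-slide values have the direction of the combined difference, but their arrays are among those that gave it. The miRNAs were also named for its size, so the shared direction is no separate test. Of the 125 called, 106 had that direction on slide 5 (84.8%) and 118 on slide 1 (94.4%). Rigid and compliant arrays of the same line and treatment shared a slide in 3 cases, none of them 67NR. In 4T1 their difference was -0.44 (inhibitor, slide 2) and -0.54 (TGF-beta, slide 3) for miR-149 and -0.64 and -0.99 for miR-146a. In 4TO7 with TGF-beta (slide 4) it was -0.79 for miR-210 and -0.03 for miR-99a.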

How the data were processed

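MiRNA was measured on 24 two-dye arrays of 593 probes (558 miRNA, 35 spike-in). The deposited intensity is, per the file headers, the linear sample signal (DY649) over a synthetic reference (DY547), background-subtracted and not normalised between arrays. Also deposited are a detection p-value and a fail code that marks a reference spot below background. The authors' deposited table holds log2 intensity of 338 probes and equals log2 of the deposited intensity plus 1 constant per array (largest deviation 5.9e-06, column medians 8.13 to 8.36). How the constants were set is not stated in the labels or file headers.

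Intensities were log2 transformed and quantile normalised over the 558 miRNA probes (limma 3.58.1, R 4.3.3). Probes detected on both arrays of at least 1 of the 12 groups, with the fail code on fewer than 12 arrays, were tested (365, of which 7 carry several names). A model of 12 group means (12 residual degrees of freedom, median residual SD 0.0764) was fitted with lmFit and eBayes with a trend, with Benjamini-Hochberg adjustment of p over the 365 probes. All 12 groups entered the fit, since a group has 2 arrays. Where a probe was undetected on all arrays of 1 side, the fold is written "at least". That limit used the probe's own value on the undetected side, or the array's dimmest detected signal where that was higher. In the folds printed here it was the probe's own value, so the limit equals the measured difference and includes no sampling error.

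The miRNAs and lists were chosen with earlier results of these data known. Named were the 12 largest rises and falls of one direction in all lines, the 10 adding and the 10 cancelling with the largest smaller component, the 6 smallest p for the interaction and for lines, and the 5 largest rises and falls per line. Other names were added where a count called for them, after their values were seen. Script and model were tested on simulated data. Set numbers were not used as pairs in the model, since the labels tie them to no shared culture or batch. Deviations of same-numbered arrays correlated above 0.1 in all 6 pairs of 4T1 groups (0.23 to 0.49), but in 2 of 6 in 67NR (-0.09 to 0.28) and 3 of 6 in 4TO7 (-0.16 to 0.38). Precision is limited by how few arrays there are. Slides, numbered 1 to 5 here, come from the labels.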

Additional observations from a re-analysis of the deposited data

Results flagged for a closer look

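The combined difference of 20 named miRNAs differed between the lines in a limma F test, out of 40 of all 365. The values are log2 differences, rigid TGFb minus compliant basal, in 67NR, 4TO7 and 4T1 in that order, and each adjusted p is from that test. The test was made on miRNAs named partly for their size, and the differences between lines are given as measured.

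In 4TO7 the value stood apart for miR-205 (0.02, -1.45 and 0.09, adjusted p = 9.93e-08), miR-155 (0.02, 1.28 and 0.27, adjusted p = 1.86e-06), miR-140* (-0.16, 0.61 and -0.00, adjusted p = 0.000129) and miR-140 (-0.17, 0.45 and -0.02, adjusted p = 0.00151). MiR-205 was not detected in 67NR or 4T1, and in 4TO7 the rigid TGFb arrays of miR-205 and the compliant basal arrays of miR-155 were below background. In 4T1 it stood apart for miR-132 (-0.02, 0.04 and 0.79, adjusted p = 0.000129), miR-135b (0.05, 0.08 and 0.82, adjusted p = 0.00151), miR-22 (0.48, 0.55 and 1.14, adjusted p = 0.00151), miR-146b (-0.05, 0.01 and 0.34, adjusted p = 0.0249) and miR-210 (-0.79, -0.99 and -1.50, adjusted p = 0.0299). MiR-135b was not detected in 67NR or 4TO7, and miR-146b not in 67NR.

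In 67NR the value was the smallest, or of the other sign, for miR-222 (-0.85, -1.34 and -1.41, adjusted p = 0.00182), let-7i (-0.08, 0.24 and 0.61, adjusted p = 0.00392), miR-99a (-0.19, -0.56 and -0.54, adjusted p = 0.00427), miR-181b (0.53, 0.87 and 0.91, adjusted p = 0.00725), miR-181a (0.47, 0.82 and 0.77, adjusted p = 0.00806), miR-146a (-0.09, 0.28 and 0.47, adjusted p = 0.00806), miR-34a (0.04, 0.43 and 0.51, adjusted p = 0.00961), miR-181d (0.14, 0.43 and 0.42, adjusted p = 0.0245) and miR-195 (-0.29, 0.38 and 0.06, adjusted p = 0.0266). MiR-206 (-0.37, 0.13 and 0.03, adjusted p = 0.00151) and miR-149 (-0.24, 0.06 and 0.01, adjusted p = 0.00151) fell in 67NR. MiR-146a was below background on the compared arrays of 67NR and 4TO7. MiR-206 was detected in 67NR alone, and miR-149 on 1 of the 4 arrays compared in 67NR.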

How the results depend on the processing

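Counts within 1.5 times of those reported were found under another scaling, the authors' deposited table, no detection filter, detection on at least 12 arrays, slide as a random block (correlation -0.0122), array weights and no mean-variance trend. With slide as a fixed block the counts were 32 in 67NR, 39 for rigidity, 9 adding and 10 cancelling, and from the 12 arrays of the comparison alone 31 in 67NR. The cause was not tested. Leaving out 1 array at a time gave 100 to 136 calls over the lines, 19 to 62 in 67NR, 41 to 79 in 4TO7, 51 to 91 in 4T1, 127 to 157 for TGF-beta, 57 to 91 for rigidity, 0 to 1 for the interaction, 25 to 61 between lines, 16 to 27 adding and 14 to 21 cancelling. With set number as a replicate block, where equal numbers deviated together in every pair of groups in 4T1 only, the counts were 146 over the lines, 68, 83 and 99 in 67NR, 4TO7 and 4T1, 162 for TGF-beta, 94 for rigidity, 0 for the interaction, 53 between lines, 28 adding and 21 cancelling, and no call of a named miRNA changed. Of 3608 recomputed values of 106 named results, 0 changed direction, 72 lost their call and 1 gained one. Within-slide pairs give values but no test, so no count of calls. Differences near the residual SD of 0.0764 are at the limit of what 2 arrays a group resolve, and levels below background have no order.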

Other observations

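Of the 125 miRNAs called in the combined difference, 17 had a called rigidity component and no called TGF-beta component. MiR-218-2* had the largest (0.30 for rigidity and 0.04 for TGF-beta), followed by miR-9 (-0.24 and -0.06), miR-805 (0.22 and -0.04), the probe named miR-715 (-0.21 and -0.07), miR-708 (0.17 and 0.00) and miR-99b (0.13 and 0.05). These are averages over the lines. For miR-9 the TGF-beta component was called in both 67NR and 4T1, with opposite signs, which its average hides. MiR-708 and its passenger strand miR-708*, which was adding, were both higher in rigid TGFb cells (0.17 and 0.19).

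The miRNAs of the Sfmbt2 intron cluster, a rodent placental cluster, had a median of another sign in 67NR than in 4TO7 and 4T1. Over the lines none of 16 tested rose and 1 fell in the combined difference (median -0.00), but the rigidity component was called higher in 7 and lower in 1, against 10.7% higher and 11.2% lower among all 365. In 67NR 5 rose and 1 fell (median 0.23), against 4.93% higher and 10.1% lower among all 365. In 4TO7 none rose and 1 fell (median -0.11), against 8.77% and 11%. In 4T1 none rose and 3 fell (median -0.10), against 11.8% and 12.3%. Some members, among them miR-297c, miR-669a and miR-669b, were detected on no compared array of 67NR. The 67NR median thus rests in part on levels below background. Several members have nearly the same sequence, so their probes are not independent. In the imprinted Dlk1-Dio3 cluster 9 of 34 tested rose and none fell (median 0.07, or 0.04 with arrays scaled to the median of all miRNA probes). Among all 365, 17.8% were higher and 16.4% lower (median 0.03). Of 7 members of the miR-34 and miR-449 list 4 rose (median 0.13). Of 12 tested members of the miR-17 clusters none rose and 2 fell (median -0.06).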
